A study of Homo sapiens with 8 samples.

Results

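The ATF4 amino acid response genes are 33 human genes, taken from a named list, for amino acid synthesis, amino acid transport and stress signalling that are driven by the transcription factor ATF4. Symbols were matched to gene identifiers, and all 33 were found among 60652 gene rows. Of these, 32 had enough reads to be tested among 16606 genes. The exception was NUPR1, a small stress-induced nuclear protein, which had between 0 and 4 reads in a library. Messenger RNA was sequenced from 8 libraries of HEK293T cells, a transformed human embryonic kidney line, carrying a TRE3G-GFP reporter. Every library came from cells sorted on mCherry and BFP at day 2 after transfection with plasmids for an activator and a guide RNA, so no group lacked an activator. The 4 groups of 2 libraries were dCasMINI-VPR with sgNT, dCasMINI-VPR with sgTet, dCas12a-VPR with crNT and dCas12a-VPR with crTet. dCasMINI and dCas12a are Cas proteins without cutting activity, joined here to the VPR activation domains. NT is read as a non-targeting guide and Tet as a guide to the tet operator sites of the reporter. The sources used here do not say whether the replicates were separate transfections, so p-values measure the spread between these libraries, which may be technical. The comparisons ask whether the guide, or the activator protein, was accompanied by a change in these genes.

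When amino acids run short or unfolded protein, haem lack or double-stranded RNA is sensed, kinases phosphorylate the translation factor eIF2. General translation then slows while ATF4 messenger RNA is translated more, so ATF4 activity is set largely at translation and its transcript level need not follow it. ATF4 binds, often as a heterodimer with a C/EBP protein, to the C/EBP-ATF response element, and turns on genes that import amino acids, make serine, glycine, proline, asparagine and cysteine, and supply mitochondrial one-carbon units. Its targets also include brakes on the same response, such as TRIB3, and, under lasting stress, DDIT3 (CHOP).

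Gene reads ranged from 17474404 to 21081942 a library, so that 3 reads correspond to between 0.145 and 0.17 CPM (counts relative to each library's size after TMM adjustment). These floors cover counting error only. The unmapped share was 14.4% and 12.7% in crNT, and 8.32% to 9.62% elsewhere. The share of gene reads in mitochondrially encoded genes was 2.97% to 4.57%. The deposited files of the 2 activators carry different prefixes whose meaning is not given in the sources used here, so whatever these mark cannot be told apart from the activator. EGFP, the reporter transcript, rose with the Tet guide by 8.05 on the log2 scale with dCasMINI-VPR and by 8.12 with dCas12a-VPR (edgeR adjusted p = 3.26e-26 and 5.18e-26). All 8 HEK293T markers examined were expressed, led by IRS4 at 811 to 1031 CPM. Of 11 markers of blood, vessel, fibroblast and liver cells, 1 was abundant enough to test, COL1A1 at 32.4 to 44.4 CPM, and the leukocyte markers PTPRC and CD68 had no reads in any library.

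Per base of exon, ATF4 had the highest mean level of the 33 genes, at 295 RPKM (CPM per kilobase of exon) over the 8 libraries. It was followed by EIF4EBP1, a repressor of cap-dependent translation, at 160 RPKM and by the serine synthesis enzyme PSAT1 at 141 RPKM. The lipoprotein receptor VLDLR at 0.444 RPKM and asparagine synthetase, ASNS, at 0.263 RPKM stood last of the tested genes. The ASNS value rests on 13 to 46 reads a library. In the GENCODE 29 annotation 44.6% of ASNS exon bases are shared with another gene on the same strand, AC079781.5, and reads overlapping more than 1 gene were not counted in either. The level of ASNS therefore cannot be taken from these counts. DDIT3 shares 39.6% of its exon bases with neighbours and had 59 to 130 reads a library without regard to strand. It had 128 to 219 in the forward-strand count and 148 to 197 in the reverse-strand count. Over all genes the forward-strand counts were 57.4% to 58.7% of the count without regard to strand, and the reverse-strand counts 56.7% to 57.3%. Neither strand count therefore separates a gene from a neighbour on the opposite strand. DDIT4 shares 41.2% of its exon bases with its antisense gene DDIT4-AS1. Its 6094 reads without regard to strand were 2980 forward and 3114 reverse, so it lost none to an opposite strand. MTHFD2 shares 33.2% with 2 antisense genes and had 26223 reads, against 23736 forward and 22853 reverse. ATF5 (2198 against 2393 and 2492), PYCR1 (20913 against 17577 and 17762), SLC1A5 (35936 against 30245 and 29804), CEBPB (5060 against 3752 and 3544) and VLDLR (658 against 593 and 644) were among others that fell short likewise. Their counts leave out reads in shared bases.

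The letters TGATGNAA, the conserved core of the C/EBP-ATF response element, were sought on both strands of the RefSeq promoters (GRCh38.p14), 300 bases a window with 250 before each gene's start. Of the 33 genes, 25 were in the RefSeq table, and 8 of these 25 (32.0%) held the letters, against 4.46% of all 27305 genes. Per window the shares were 19.5% of 41 windows of these genes and 3.62% of all 35116 windows. The 8 matches are shown so that their shared core can be seen, and were chosen after the table was searched. Capitals mark the matched letters, and each run is written on the strand that carries them.
SLC3A2: ggagcTGATGTAAggagtcctgc
SLC1A4: cggctggagaTGATGCAAacgggagccg
SLC1A5: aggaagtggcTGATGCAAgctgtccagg
SLC7A1: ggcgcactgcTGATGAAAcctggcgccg
CHAC1: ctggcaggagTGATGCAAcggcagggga
CEBPG: gcgcggcgtcTGATGCAAcctgccggca
JDP2: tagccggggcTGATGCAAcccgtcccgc
ASNS: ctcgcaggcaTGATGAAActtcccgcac

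These runs lie at chr11:62881726-62881748 (minus strand) for SLC3A2, chr2:64989382-64989409 (minus) for SLC1A4, chr19:46784894-46784921 (minus) for SLC1A5 and chr13:29595664-29595691 (minus) for SLC7A1. Those of CHAC1, CEBPG, JDP2 and ASNS lie at chr15:40953252-40953279 (minus), chr19:33374061-33374088 (plus), chr14:75427996-75428023 (plus) and chr7:97872459-97872486 (minus). The match lies after the annotated start in SLC3A2 and SLC7A1, spans it in SLC1A4 and lies before it in the other 5. Of the 11 genes that changed in some comparison, 9 were in the table and 1, SLC3A2, held the letters. Their absence says only that these letters are not in that window.

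The crNT libraries stood highest for most of these genes. Both crNT libraries lay above all the other 6 for 14 of the 32 tested genes (43.8%), against 12.2% of all genes tested: TRIB3, PSAT1, PSPH, MTHFD2, SLC7A11, SLC3A2, SLC7A1, SLC38A2, SLC1A4, CEBPG, STC2, CTH, ALDH1L2 and PCK2. The leucine importer SLC7A5 was the single gene with both crNT libraries below the other 6. The crNT mean was the highest of the 4 group means for 20 of the 32 genes (62.5%), and for 29.8% of all genes. The same 2 libraries had the highest unmapped share, and the part of that share in these values was not tested. In bulk libraries fewer cells expressing a gene and less RNA per cell cannot be told apart.

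**Figure D1:**
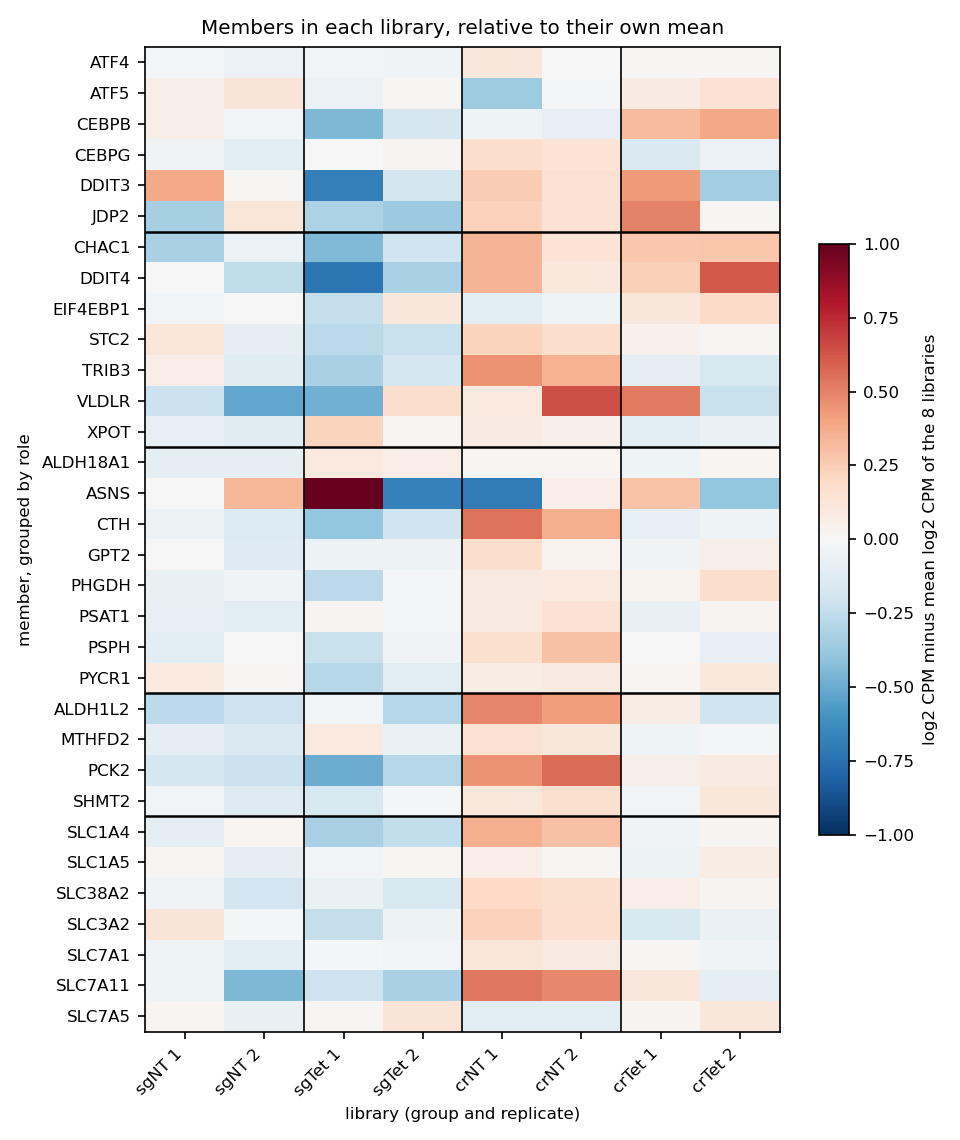
Each row is 1 of the 32 tested genes, grouped by role, and each column is 1 library. The colour is log2 CPM minus the gene's mean log2 CPM over the 8 libraries, with the scale ending at -1 and 1, so that ASNS in the first sgTet library is drawn at the end of it. The 2 crNT columns are red for most rows, with SLC7A5, ATF5 and CEBPB among the exceptions.

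Between activators with the NT guides, 8 of the 32 genes were lower with dCasMINI-VPR and none was higher by edgeR's quasi-likelihood test at a Benjamini-Hochberg adjusted p of 0.05. In that comparison 7.68% of all genes passed, and 3.6% of all genes passed as lower. The 8 were TRIB3, CTH, PSAT1, PCK2, ALDH1L2, MTHFD2, SLC7A11 and SLC38A2. Both sgNT libraries lay below both crNT libraries for 25 of the 32 genes, against 27.9% of all genes. The median log2 difference of the 32 was -0.19, against 0.00 over all genes. Leaving out any sgNT or crNT library lowered the number of the 32 that passed, and leaving out either sgTet library raised it. The share of all genes that passed moved with it. Leaving out either crTet library left the calls among the 32 unchanged. With 1 library left out the median of the 32 lay between -0.16, without the second sgNT library, and -0.23, without the first.

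With the Tet guides, 3 genes were lower with dCasMINI-VPR, CEBPB, DDIT4 and PCK2, and none was higher. In that comparison 4.28% of all genes passed, 2.6% lower. The median of the 32 was -0.13, against 0.00 over all genes. It was -0.08 without the first sgTet library, and -0.05 with each library's trend with gene length and GC content removed, where that of all genes was 0.03. Without the second sgTet library the median of the 32 was -0.19, and more of the 32 and of all genes passed.

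For dCas12a-VPR the Tet guide was accompanied by lower levels of 6 genes, TRIB3, CTH, ALDH1L2, PCK2, SLC3A2 and SLC7A11, and a higher level of CEBPB. Among all genes 6.32% passed in this comparison, 2.75% lower and 3.56% higher. Both crTet libraries lay below both crNT libraries for 15 of the 32 genes, against 26.3% of all genes, and the median was -0.11 against 0.01. This comparison and that between the NT guides share the crNT libraries, so their values are not independent. Leaving out any dCas12a-VPR library lowered the number of the 32 that passed, and the share of all genes that passed fell with it. Leaving out either sgTet library raised both. The median of the 32 lay between -0.10 without the second crTet library and -0.14 without the first.

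The Tet guide with dCasMINI-VPR changed none of the 32 genes by edgeR's quasi-likelihood test or by DESeq2, where 0.795% of all genes passed the edgeR test. At an unadjusted p under 0.05 there were 10, with 2 higher and 8 lower, where 12.3% of all genes were under it. The median was -0.04, against 0.00 over all genes, and lay between -0.01 without the first sgNT and -0.14 without the second sgTet library. Without the second sgTet library, which belongs to the pair that differed most (chi-square per degree of freedom 13.9, against 3.19 to 6.93 in the other groups), 8.34% of all genes passed and 6 of the 32 with them. These were CEBPB, DDIT4, PYCR1, SLC3A2 and STC2, lower, and XPOT, higher.

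**Figure D2:**
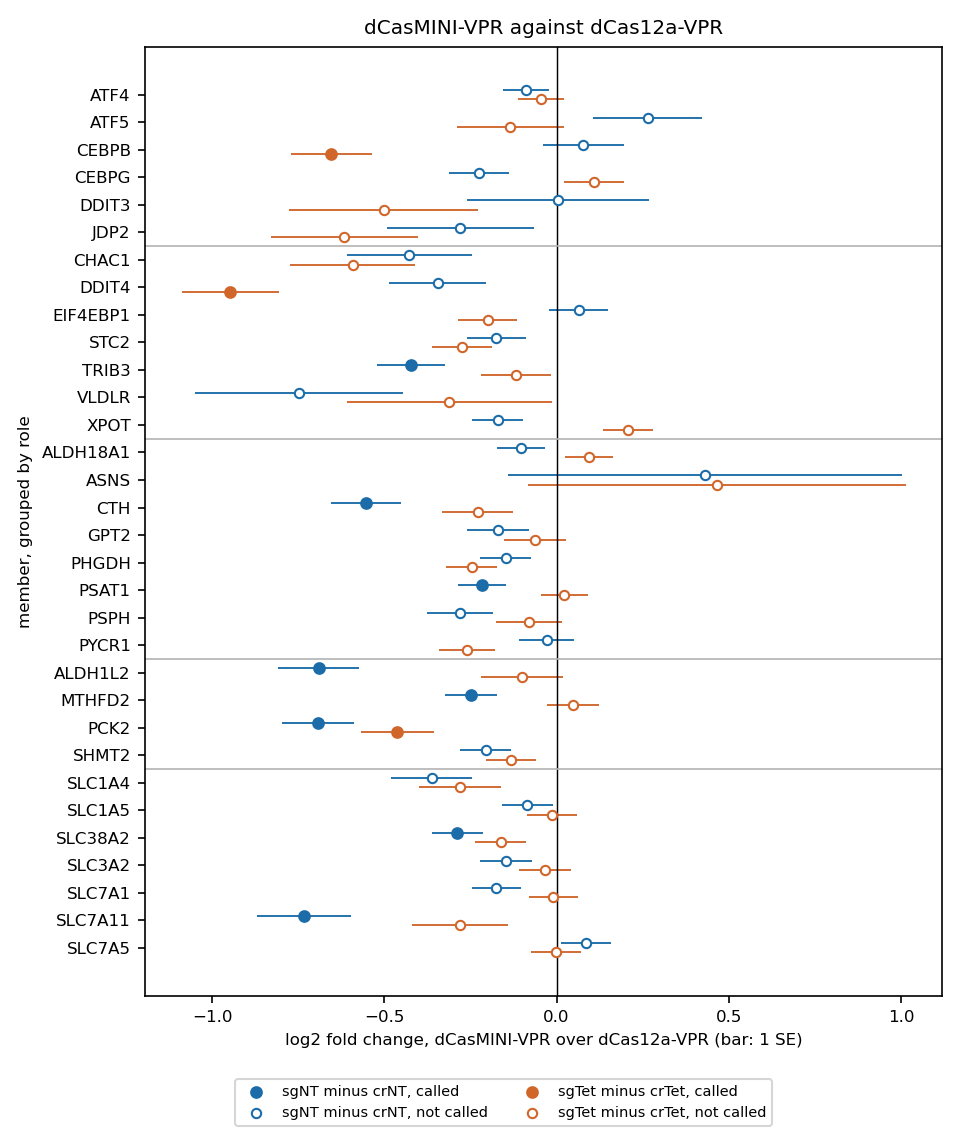
Log2 fold change of each gene between dCasMINI-VPR and dCas12a-VPR, with the NT guides in blue and the Tet guides in orange; bars are 1 SE and filled points passed the test. The 8 filled blue points and the 3 filled orange points all lie left of 0.

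Among the transcription factors, ATF4 (chr22:39519695-39522685, hg38, GENCODE 29) was at 736 and 714 CPM (sgNT), 730 and 723 (sgTet), 801 and 741 (crNT) and 748 and 750 (crTet). All 8 values lay close together, and the first crNT value was the highest. The log2 fold change of ATF4 was 0.00 ± 0.07 (SE) for the Tet guide with dCasMINI-VPR and -0.04 ± 0.07 with dCas12a-VPR, and between activators it was -0.09 ± 0.07 with the NT guides (edgeR adjusted p = 0.992, 0.795 and 0.48). No comparison of ATF4 passed. ATF5 (chr19:49928702-49933935), a related factor that is also controlled at translation, measured 14.4 and 15.2 CPM (sgNT), 13.4 and 14.0 (sgTet), 10.9 and 13.8 (crNT) and 14.7 and 15.4 (crTet). Its lowest value was in the first crNT library, opposite to most of the other genes, and no comparison passed. ATF5 shares 23.7% of its exon bases with neighbours, and its count leaves out reads that fall there. The counts of DDIT3 (chr12:57516588-57521737), the pro-death factor CHOP, gave 6.15 and 4.77 CPM (sgNT), 2.95 and 4.16 (sgTet), 5.64 and 5.27 (crNT) and 6.34 and 3.72 (crTet). Both sgTet values lay below both sgNT values, with a log2 difference of -0.62 ± 0.27 that did not pass (edgeR adjusted p = 0.343).

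CEBPB (chr20:50190734-50192689), a C/EBP factor of inflammation and stress, was the 1 gene of the 32 whose response to the Tet guide differed between activators by edgeR. It was at 32.99 and 31.1 CPM (sgNT), 23.2 and 28.3 (sgTet), 30.7 and 29.99 (crNT) and 39.5 and 41.4 (crTet). The crTet pair was above all other libraries and the sgTet pair below all others. CEBPB rose with the Tet guide by 0.41 ± 0.12 with dCas12a-VPR (edgeR adjusted p = 0.0274), and its log2 change with dCasMINI-VPR was -0.32 ± 0.12 (edgeR adjusted p = 0.244). The difference of these effects was -0.73 ± 0.17 (edgeR adjusted p = 0.0196), in a test that 1.35% of all genes passed. Between activators with the Tet guides CEBPB was 1.57-fold lower with dCasMINI-VPR (log2 -0.65 ± 0.12, edgeR adjusted p = 0.000493), and with the NT guides the 2 activators differed by 0.08 ± 0.12. The difference of the effects lost its call without either sgNT library, either crNT library, the first sgTet or the second crTet library, with adjusted p from 0.0571 to 0.114. DESeq2 estimated the same difference (-0.73 ± 0.19, unadjusted p = 7.89e-05) but gave CEBPB no adjusted p, and called ALDH1L2 and XPOT instead. The rise with dCas12a-VPR was lost without any 1 of the 4 dCas12a-VPR libraries (edgeR adjusted p = 0.0792 to 0.235). Removing each library's trend with gene length and GC content brought the difference to -0.40 (edgeR adjusted p = 0.195) and the dCas12a-VPR effect to 0.21 (edgeR adjusted p = 0.249). CEBPB is 66.2% GC over its exons. In the reverse-strand counts its change with dCasMINI-VPR passed as lower, where 0.572% of all genes passed. The annotation places CEBPB-AS1 on the opposite strand over 11.8% of its exon bases.

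Of the stress effectors, TRIB3 (chr20:362835-397559), a pseudokinase that restrains ATF4 and CHOP, was at 57.0 and 49.9 CPM (sgNT), 43.4 and 48.4 (sgTet), 74.1 and 69.2 (crNT) and 50.9 and 48.7 (crTet). Both crNT libraries were above all others, and the remaining 3 groups lay near each other. TRIB3 fell by 0.52 ± 0.10 on the log2 scale from crNT to crTet (edgeR adjusted p = 0.00106) and was 1.34-fold lower in sgNT than in crNT (edgeR adjusted p = 0.00539). The first of these was lost without the first crNT library (edgeR adjusted p = 0.0726), and the second without the first crNT or the second sgNT library (0.158 and 0.234). CHAC1 (chr15:40952962-40956519), which degrades glutathione, measured 7.74 and 9.30 CPM (sgNT), 7.15 and 8.42 (sgTet), 12.2 and 10.6 (crNT) and 11.7 and 11.8 (crTet). All 4 dCas12a-VPR libraries lay above all 4 dCasMINI-VPR libraries, with a log2 difference of -0.43 ± 0.18 for the NT guides and -0.59 ± 0.18 for the Tet guides that did not pass (edgeR adjusted p = 0.159 and 0.0559). DDIT4 (chr10:72273920-72276036), an inhibitor of the mTORC1 growth kinase, was at 37.5 and 31.3 CPM (sgNT), 22.6 and 29.8 (sgTet), 47.3 and 40.1 (crNT) and 44.1 and 57.0 (crTet). It likewise separated by activator, and was 1.93-fold lower in sgTet than in crTet (log2 -0.95 ± 0.14, edgeR adjusted p = 0.000177), which held in all 19 alternative settings.

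**Figure D3:**
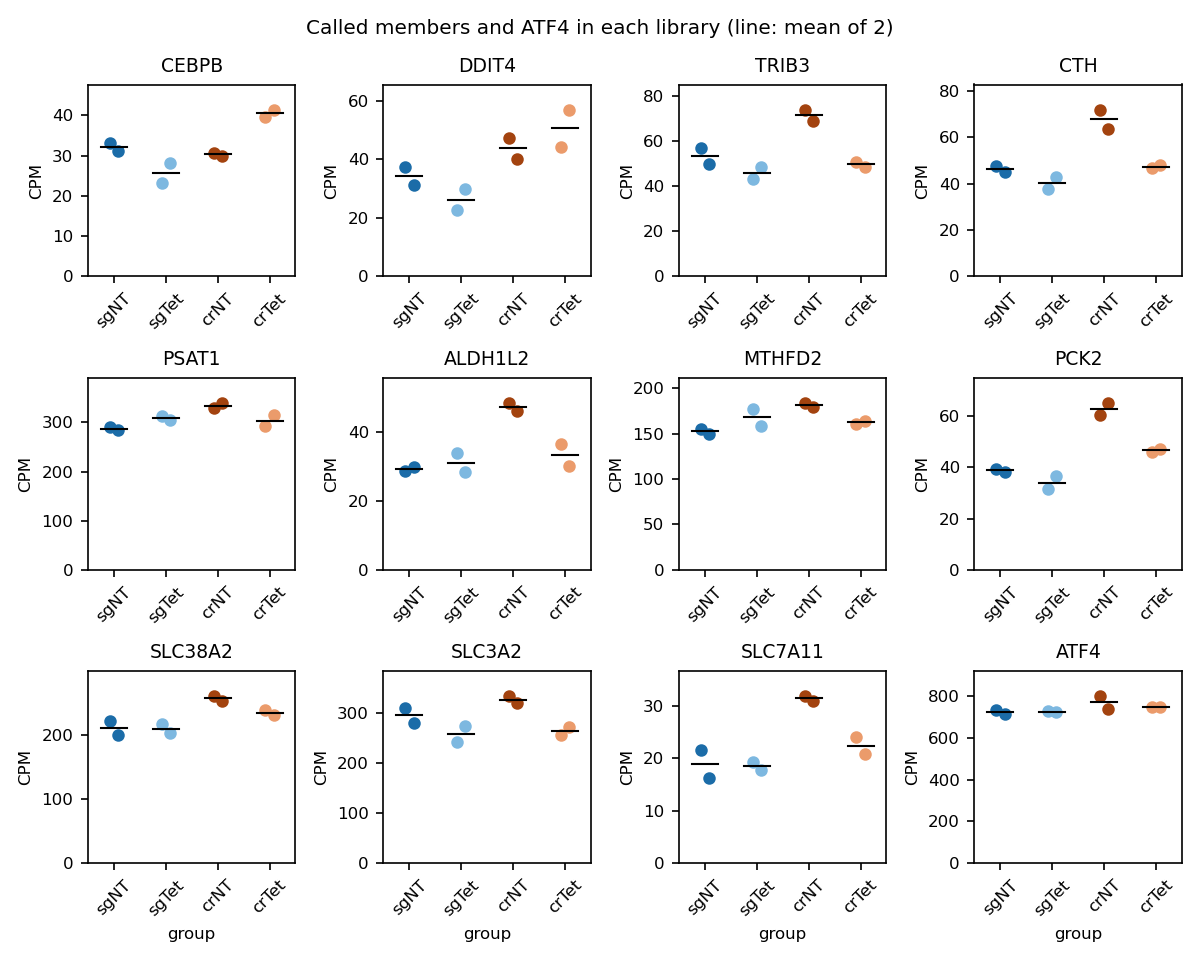
CPM in each library (points) and group means (lines) for the 11 genes that passed in a comparison and for ATF4, with every axis starting at 0. The crNT pair is highest in 9 of the 11 panels, CEBPB and DDIT4 being the exceptions. Each of these 9 genes was chosen because it passed as lower than crNT in a comparison, so that count follows largely from the choice. ATF4 is drawn whatever its values, and its points lie near one level.

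For amino acid synthesis, CTH (chr1:70411218-70439851), which releases cysteine from cystathionine, had 47.6 and 44.9 CPM (sgNT), 37.7 and 43.0 (sgTet), 72.0 and 63.7 (crNT) and 46.6 and 48.0 (crTet). The crNT pair again stood above every other library, and the sgTet pair below. CTH was 1.43-fold lower in crTet than in crNT (log2 -0.52 ± 0.10, edgeR adjusted p = 0.00144) and 1.47-fold lower in sgNT than in crNT (log2 -0.55 ± 0.10, edgeR adjusted p = 0.000379). Without the first crNT library neither passed (edgeR adjusted p = 0.121 and 0.0521). PSAT1 (chr9:78297143-78330093), the aminotransferase of serine synthesis, was at 291 and 285 CPM (sgNT), 313 and 304 (sgTet), 329 and 340 (crNT) and 293 and 315 (crTet). Its sgNT pair was lowest and its crNT pair highest, 1.16-fold apart (log2 -0.22 ± 0.07, edgeR adjusted p = 0.0483). That call was lost in 8 of the alternative settings, among them the removal of any of the 4 libraries compared. PHGDH, the first enzyme of serine synthesis, and PSPH, the last, did not pass in any comparison. PSPH had 71.3 and 78.3 CPM in crNT against 54.8 to 64.2 in the other 6 libraries. ASNS (chr7:97852118-97872542) read 1.08 and 1.36 CPM (sgNT), 2.30 and 0.678 (sgTet), 0.666 and 1.13 (crNT) and 1.32 and 0.826 (crTet), with overlap in every comparison. Of the 8 synthesis genes, 2 passed in the NT comparison of activators and 1 in the dCas12a-VPR guide comparison, all lower.

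With the NT guides, the largest share of lower genes among the 5 roles was 3 of 4, in mitochondrial one-carbon and phosphoenolpyruvate enzymes. These 4 were PCK2, ALDH1L2, MTHFD2 and SHMT2, with a median log2 difference of -0.47, and 3.6% of all genes passed as lower. Other mitochondrial enzymes, such as GPT2, were counted under synthesis, and GPT2 did not pass. PCK2 (chr14:24094053-24110598), the mitochondrial enzyme that makes phosphoenolpyruvate, was at 39.6 and 38.3 CPM (sgNT), 31.4 and 36.5 (sgTet), 60.5 and 65.3 (crNT) and 46.3 and 47.3 (crTet). The 4 groups did not overlap. It was lower with dCasMINI-VPR by 1.62-fold with the NT guides (log2 -0.69 ± 0.10, edgeR adjusted p = 2.1e-05) and by 1.38-fold with the Tet guides (log2 -0.46 ± 0.11, edgeR adjusted p = 0.00703), and fell by 0.43 ± 0.10 from crNT to crTet (edgeR adjusted p = 0.00878). The NT difference held in all 19 alternative settings. The Tet difference was lost in the forward-strand counts, without the first sgTet or the second crTet library and in a fit of those 2 groups alone (edgeR adjusted p = 0.129, 0.0868, 0.0598 and 0.0534), and the guide effect without any 1 of the 4 dCas12a-VPR libraries (0.0559 to 0.175) and in the forward-strand counts (0.0880).

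ALDH1L2 (chr12:105019784-105084577), which oxidises formyl-tetrahydrofolate in mitochondria, measured 28.8 and 29.95 CPM (sgNT), 33.9 and 28.3 (sgTet), 48.6 and 46.2 (crNT) and 36.5 and 30.1 (crTet). The crNT pair was above the other 6, which overlapped. Its sgNT mean was 1.61-fold below crNT (log2 -0.69 ± 0.12, edgeR adjusted p = 0.000139), in all 19 alternative settings also, and its crTet mean 1.42-fold below crNT (log2 -0.51 ± 0.12, edgeR adjusted p = 0.00646). The second call was lost without the first crNT or the second crTet library and in the forward-strand counts (edgeR adjusted p = 0.146, 0.159 and 0.0689). MTHFD2 (chr2:74198562-74217565), the mitochondrial folate dehydrogenase, was at 156 and 150 CPM (sgNT), 177 and 159 (sgTet), 184 and 179 (crNT) and 161 and 164 (crTet). It was 1.19-fold lower in sgNT than in crNT (log2 -0.25 ± 0.08, edgeR adjusted p = 0.0380), which was lost without any 1 of these 4 libraries (0.123 to 0.361) and with the length and GC trend removed (0.0721). SHMT2, which splits serine into glycine and a one-carbon unit, had a log2 difference of -0.21 ± 0.07 in the same comparison and did not pass (edgeR adjusted p = 0.0818).

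Of the transporters, SLC7A11 (chr4:138164097-138242349), the cystine and glutamate exchanger, was at 21.6 and 16.3 CPM (sgNT), 19.3 and 17.8 (sgTet), 32.0 and 31.1 (crNT) and 24.1 and 20.8 (crTet). The crNT pair lay above all others, and the crTet pair was next, overlapping sgNT. SLC7A11 was 1.66-fold lower in sgNT than in crNT (log2 -0.73 ± 0.14, edgeR adjusted p = 0.000486) and 1.40-fold lower in crTet than in crNT (log2 -0.49 ± 0.14, edgeR adjusted p = 0.0252). In the reverse-strand counts these values were -0.48 (edgeR adjusted p = 0.0634) and -0.15 (edgeR adjusted p = 0.689). In the forward-strand counts both passed, the second at -0.68 (edgeR adjusted p = 0.00692). The annotation places SLC7A11-AS1 on the opposite strand over 8.97% of its exon bases. Without the second sgNT library the first value was -0.55 (edgeR adjusted p = 0.0792), and the second was lost without either crNT or the second crTet library (0.131 to 0.252).

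SLC3A2 (chr11:62856102-62888875), the heavy chain that carries SLC7A11 and SLC7A5 to the membrane, was at 309 and 279 CPM (sgNT), 240 and 273 (sgTet), 333 and 319 (crNT) and 255 and 270 (crTet). Levels with either Tet guide were below those with the matching NT guide. From crNT to crTet the log2 difference was -0.31 ± 0.07 and passed (edgeR adjusted p = 0.00924), and from sgNT to sgTet the log2 difference was -0.20 ± 0.08 (edgeR adjusted p = 0.254). The first was lost without either crNT or the first crTet library (0.0628 to 0.225) and in the forward-strand counts (0.0642). SLC38A2 (chr12:46358189-46372867), a sodium-coupled importer of small neutral amino acids, had 222 and 199 CPM (sgNT), 216 and 202 (sgTet), 260 and 253 (crNT) and 238 and 231 (crTet). All dCas12a-VPR libraries lay above all dCasMINI-VPR libraries. The SLC38A2 difference with the NT guides was -0.29 ± 0.07 (edgeR adjusted p = 0.0111), and it was lost without the second sgNT or either crNT library (0.0939 to 0.357). SLC7A5, the partner of SLC3A2 for leucine import, did not follow this order, with 234 and 235 CPM in crNT and 241 to 277 CPM in the other 6 libraries, and no comparison of it passed.

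**Figure D4:**
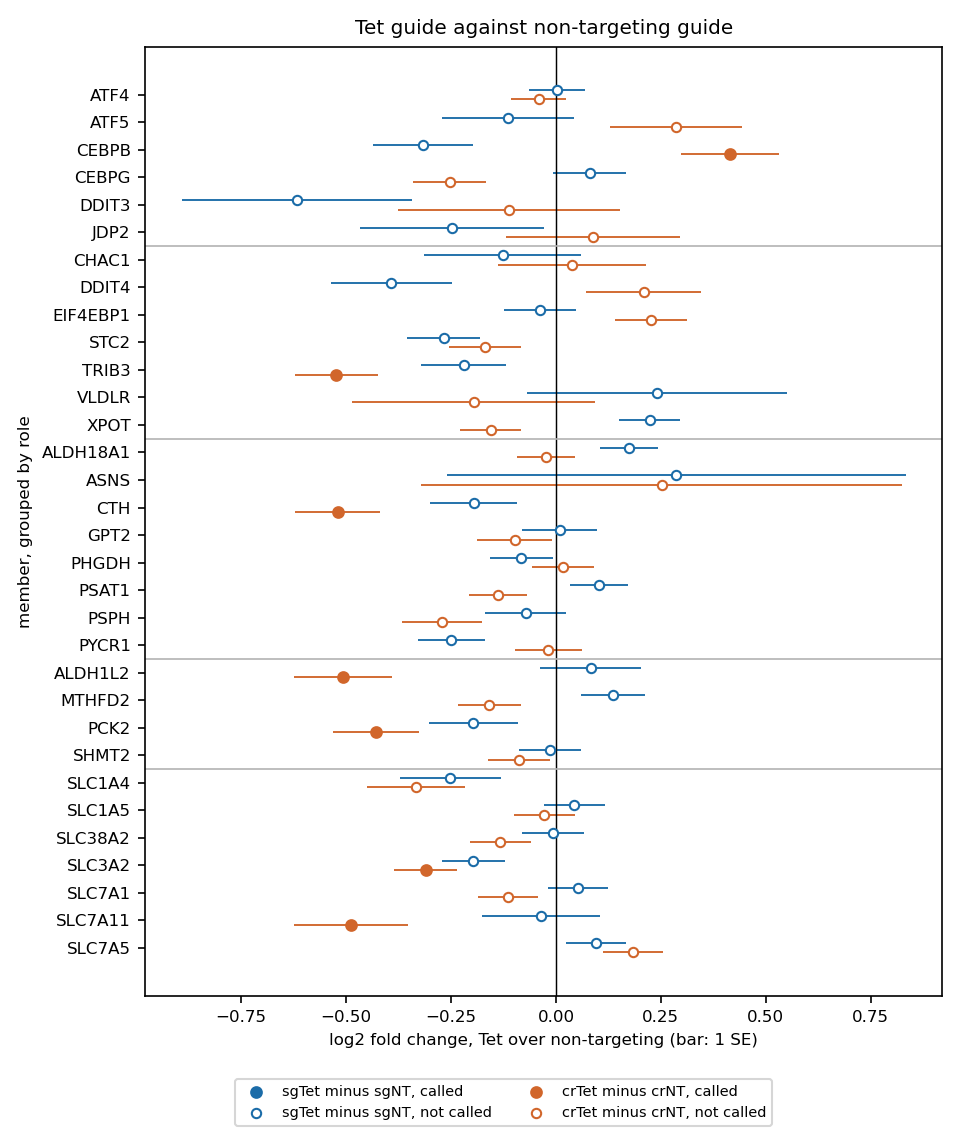
Log2 fold change of each gene from the NT to the Tet guide, for dCasMINI-VPR in blue and dCas12a-VPR in orange; bars are 1 SE and filled points passed the test. The filled orange points are the 6 lower genes and CEBPB, the single higher one, and no blue point is filled.

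The remaining genes passed in no comparison, and are given by role. CEBPG, the C/EBP partner of ATF4, had 88.3 and 85.7 CPM in crNT against 70.8 to 79.7 CPM in the other 6 libraries, and JDP2, a repressor of the same leucine zipper class, lay between 5.76 and 10.4 CPM. STC2, a secreted glycoprotein, was at 107 and 104 CPM in crNT and at 76.1 to 100 CPM elsewhere, with its 2 sgTet libraries lowest. XPOT, which carries tRNAs out of the nucleus, reached 348 and 301 CPM in sgTet against 281 and 275 in sgNT, and the difference between its 2 guide effects was 0.38 ± 0.10 (edgeR adjusted p = 0.0536). EIF4EBP1 lay between 146 and 195 CPM and VLDLR between 2.78 and 6.20 CPM.

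In synthesis, ALDH18A1 and PYCR1 begin and end proline synthesis from glutamate. ALDH18A1 was at 269 and 263 CPM in sgTet, above the other 6 libraries, whereas PYCR1 was at 108 and 123 CPM in sgTet, below the other 6. Their changes with the Tet guide and dCasMINI-VPR were 0.17 ± 0.07 and -0.25 ± 0.08 in log2 and did not pass (edgeR adjusted p = 0.278 and 0.160). GPT2, the mitochondrial alanine aminotransferase, lay between 69.6 and 86.3 CPM and PHGDH between 431 and 586 CPM. Among the transporters, SLC1A4, a neutral amino acid exchanger, had 35.6 and 33.8 CPM in crNT against 22.1 to 28.1 CPM in the other 6 libraries, and its sgNT to crNT difference of -0.36 ± 0.12 came close to the threshold (edgeR adjusted p = 0.0530). SLC7A1, the cationic amino acid importer, was at 217 and 212 CPM in crNT and 186 to 201 CPM elsewhere, and the glutamine importer SLC1A5 lay between 212 and 239 CPM with overlapping groups.

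By role, the lower genes with dCasMINI-VPR under the NT guides were 0 of 6 transcription factors, 1 of 7 stress effectors and 2 of 8 synthesis enzymes. They were 3 of 4 mitochondrial one-carbon and phosphoenolpyruvate enzymes and 2 of 7 transporters, where 3.6% of all genes passed as lower. Of the transcription factors 1 had an unadjusted p under 0.05, by edgeR, as had 21.05% of all genes. From crNT to crTet the lower genes were 0, 1, 1, 2 and 2 in the same order of roles, where 2.75% of all genes passed as lower.

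The 2 guide effects share no library and were set side by side. Of the 32 genes, 12 had a log2 value below 0 with both activators, 2 above 0 with both, 11 above 0 with dCasMINI-VPR and below 0 with dCas12a-VPR, and 7 the opposite. The Pearson correlation of the 2 sets of values over the 32 genes was -0.003. These counts were not set against those of all genes. The 6 genes that fell with dCas12a-VPR had log2 values with dCasMINI-VPR of -0.22 for TRIB3, -0.20 for CTH, -0.20 for PCK2, -0.20 for SLC3A2, -0.04 for SLC7A11 and 0.08 for ALDH1L2. For none of these 6 did the difference between activators pass. ALDH1L2 came nearest, with 0.59 ± 0.17 (edgeR adjusted p = 0.0660). It passed by DESeq2, with no filter on low counts, with a replicate block shared by the groups and without the second sgTet or the first crTet library, and TRIB3 passed with the length and GC trend removed.

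Other genes of the pathway were counted from lists drawn up beside the 33. Of 18 genes of eIF2 signalling, none passed the edgeR test for either Tet guide, where 1 had an unadjusted p under 0.05 with dCasMINI-VPR and 2 with dCas12a-VPR, against 12.3% and 19.8% of all genes. DESeq2 also called none, but without the second sgTet library 1 was higher and 1 lower with dCasMINI-VPR, and without either sgTet library 1 was lower with dCas12a-VPR. With the NT guides 2 were lower with dCasMINI-VPR: EIF2AK2, the kinase PKR that senses double-stranded RNA, at 190 and 190 CPM in sgNT against 299 and 274 in crNT (log2 -0.59 ± 0.10, edgeR adjusted p = 0.000312), and PPP1R15A, the phosphatase subunit GADD34 that reverses eIF2 phosphorylation, with -0.31 ± 0.08 (edgeR adjusted p = 0.0133). With the Tet guides PPP1R15A was at 91.7 and 94.9 CPM in sgTet against 148 and 129 in crTet (log2 -0.57 ± 0.08, edgeR adjusted p = 1.43e-05), EIF2AK2 was also lower (log2 -0.39 ± 0.09, edgeR adjusted p = 0.0189), and EIF2B1 was higher (log2 0.38 ± 0.08, edgeR adjusted p = 0.00523). That EIF2AK2 call was lost without the first crTet library (0.207), in forward-strand counts (0.0659) and in a fit of only those 2 groups (0.0599), and the EIF2B1 call without the second crTet library (0.0854). The PPP1R15A difference with the NT guides was lost without any 1 of the 4 libraries compared (0.0925 to 0.216).

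Of 18 other stress genes reported as targets of ATF4 or CHOP, PPP1R15A among them, 16 were tested. From crNT to crTet 7 fell and none rose, where 2.75% of all genes passed lower. They were led by SESN2, a sestrin that restrains mTORC1, at 304 and 278 against 205 and 202 CPM (log2 -0.52 ± 0.07, edgeR adjusted p = 4.47e-05), and the death receptor TNFRSF10B (log2 -0.50 ± 0.08, edgeR adjusted p = 9.15e-05). The 7 became 2, SESN2 and TNFRSF10B, without the first crNT library, and 4 without the second crTet library. Between activators with the Tet guides 3 were lower with dCasMINI-VPR and 1 higher, where 2.6% of all genes passed lower. The 3 became 1, PPP1R15A, in forward-strand counts and in a fit of only those groups, and 2 by DESeq2. With the NT guides 8 were lower and none higher, where 3.6% of all genes passed lower. Among the 8 was the stress cytokine GDF15, at 32.9 and 34.4 CPM in sgNT against 56.0 and 54.2 in crNT (log2 -0.71 ± 0.11, edgeR adjusted p = 1.74e-05). The 8 became 3 without the second sgNT or the first crNT library, and 4 without the second crNT library. With dCasMINI-VPR the Tet guide raised 1 and lowered 3, and none of the 3 passed without the first sgNT library (edgeR adjusted p = 0.118 to 0.129). The raised gene was ATF3, a stress-induced factor of the same family, at 331 and 303 CPM in sgTet and 184 and 166 in sgNT (log2 0.86 ± 0.08, edgeR adjusted p = 5.37e-09). In the dCas12a-VPR libraries ATF3 fell instead, from 225 and 216 to 175 and 154 CPM (log2 -0.42 ± 0.08, edgeR adjusted p = 0.000789, or 0.0535 without the first crNT library).

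Cytosolic aminoacyl-tRNA synthetases charge tRNAs, and several of the 20 counted are ATF4 targets. Between activators with the Tet guides 8240 of all 16606 genes lay above 0 and 4.28% passed, 2.6% as lower. Of the 20 synthetases 16 had a log2 value above 0 (median 0.12), and 2 passed as higher with dCasMINI-VPR and 1 as lower. None of these 3 passed in a fit of only those groups (edgeR adjusted p = 0.0922 to 0.168). With the NT guides 8296 of all genes lay below 0 and 7.68% passed, 3.6% as lower. Of the 20 synthetases 13 were below 0 (median -0.10), and 5 passed as lower with dCasMINI-VPR and 2 as higher. None of these calls held without the second sgNT or without either crNT library, and IARS1 alone held without the first sgNT library. With either sgTet library left out, more of the synthetases and more of all genes passed. With the guides 1, also IARS1, fell from crNT to crTet (log2 -0.25 ± 0.07, edgeR adjusted p = 0.0273), a call lost without any 1 of 6 libraries (0.0534 to 0.375). Of 14 other amino acid transporters tested, SLC38A1, a glutamine importer, fell from crNT to crTet (log2 -0.30 ± 0.08, edgeR adjusted p = 0.0138), and SLC38A1 and SLC7A3 were lower in sgNT than in crNT. Neither of the latter passed without the second sgNT or the first crNT library, and SLC7A3, -0.57 ± 0.18 in all libraries (edgeR adjusted p = 0.0404), was -0.31 without the first crNT library (0.622) and missed by DESeq2 (0.0581). The SLC38A1 fall from crNT to crTet was lost without either crNT or the second crTet library (0.0581 to 0.335). Among 20 other amino acid and one-carbon enzymes the single change with the guide was a rise of MAT2A, which makes S-adenosylmethionine, with dCas12a-VPR (log2 0.38 ± 0.07, edgeR adjusted p = 0.00175; 0.0719 and 0.0504 without the first and second crNT library). MAT2A was at 127 and 126 CPM in crNT and between 160 and 184 CPM in the other 6 libraries. With dCasMINI-VPR the Tet guide changed none in these 3 lists, where 5 of the enzymes, 3 of the transporters and 10 of the synthetases had an unadjusted p under 0.05, against 12.3% of all genes. Without the second sgTet library some genes of each of these lists passed, most of them synthetases, and the share of all genes that passed also rose.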

How the data were processed

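Poly(A) messenger RNA of 8 libraries was used, 2 in each of 4 groups taken from the sample titles. Per the submitters' processing notes, STAR and hg38 were used; the STAR version and the annotation release are not given in the sources used here. The files deposited by the authors hold raw counts per gene, 1 file a library, with an added EGFP row. The first of 3 count columns, which ignores strand, was used; 4 rows of totals that name no gene stayed out of library sizes, and of these the ambiguous reads were 10.4% to 11.2%.

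Counts were fitted with edgeR 4.0.16 in R 4.3.3 (robust quasi-likelihood, TMM, filterByExpr with a count minimum of 10), as 1 model of 4 group means over 8 libraries. This left 4 residual degrees of freedom, a median of 28.9 prior degrees of freedom and a common biological coefficient of variation of 8.04%. Tests were two-sided, with a threshold of 0.05 on p after Benjamini-Hochberg adjustment over 16606 genes. CPM are per TMM-adjusted library size, and SE is the size of log2 fold change over the square root of F. DESeq2 1.42.0 was 1 of the alternatives. The script was tested on simulated data. Lengths, positions and shared exons come from GENCODE 29, in which 38152 of 60652 row identifiers have the same version, so the authors' annotation may differ.

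The members and lists were chosen with earlier results of these data known. Every-library values are given for ATF4, ATF5, DDIT3, TRIB3, CHAC1, ASNS and each member called in a comparison; from each other list at most 3 called genes a comparison are named, by adjusted p. The rule for promoters (called with the NT guides and holding the letters) found 0 of 6. XPOT, PYCR1, STC2 and the other uncalled members with values were named after these were seen.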

Additional observations from a re-analysis of the deposited data

Results flagged for a closer look

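Among the 33 genes and the other lists of the pathway, 4 genes had a guide effect that differed between the 2 activators in a test of the difference itself, by edgeR's quasi-likelihood test with Benjamini-Hochberg adjustment over all genes. The difference, dCasMINI-VPR minus dCas12a-VPR, was -0.73 for CEBPB (adjusted p = 0.0196), whose CPM fell outside the other libraries on opposite sides in sgTet and crTet. That call was lost in 7 of the 17 alternatives that gave it an adjusted p, and DESeq2 gave none. It was 1.28 for ATF3 (adjusted p = 3.12e-09), with 331 and 303 CPM in sgTet against 154 to 225 CPM in the other 6 libraries, and this call was kept in every alternative run. It was 0.39 for IARS1 (adjusted p = 0.0367), which was lost in 9 alternatives, and 0.43 for SLC38A1 (adjusted p = 0.0371), lost in 10.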

How the results depend on the processing

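The 19 calls of single genes gave 359 values under the alternatives, of which 304 passed with the same direction, 55 kept the direction without passing and 0 reversed. The genes called with dCasMINI-VPR's Tet guide, 0, became 1 in reverse-strand counts, CEBPB, where 0.572% of all genes passed. The only other setting with a call left out the second sgTet library, where the share of all genes that passed rose. For dCas12a-VPR's Tet guide the 7 became 4 in forward-strand counts (3.8% of all genes) and 12 in a fit of only the groups compared (11.3% of all genes). Without the first crNT library none of these calls held, and the share of all genes that passed fell as well. For the difference of guide effects the 1, CEBPB, became 2 by DESeq2 (ALDH1L2 and XPOT, with no adjusted p for CEBPB), where 1.8% of all genes passed. It became 4 with no filter on low counts (1.42% of all genes), and with the length and GC trend removed it was TRIB3 in place of CEBPB. Leaving out 1 library lost or added calls, and the largest rise, without the second sgTet library, came with the largest share of all genes. Between activators the 8 with the NT guides became 18 in the fit of only those groups (19.0% of all genes) and 3 to 15 without 1 library. The 3 with the Tet guides became 6 on library size alone, 5 with no filter and 2 to 10 without 1 library.

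Replicate numbers did not pair the libraries alike in all groups. Over 6399 genes, deviations of same-numbered libraries from their group means correlated at 0.338 between sgTet and crTet. The value was 0.201 between crNT and crTet, -0.171 between sgNT and crTet, and 0.0094 to 0.0869 between the other groups. Over all genes, a replicate block shared by the groups raised the calls from 224 to 400 for the difference of guide effects. Between activators with the Tet guides it raised them from 711 to 894. Among the ATF4 amino acid response genes, the shared block gave 3 genes for the difference and 7 between activators with the Tet guides. A replicate block within each activator gave 2 and 5 of these genes.

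Over all genes, the 132 calls for dCasMINI-VPR's Tet guide became 1475 without the second sgTet library and 204 once the trend with length and GC was taken out. The 711 between activators with the Tet guides became 1293 with that trend removed, with 860 higher and 433 lower against 279 and 432. On library size alone the split of dCas12a-VPR's Tet guide was 432 higher and 600 lower, against 592 and 457. With dCasMINI-VPR it was 68 and 80 against 78 and 54, and between activators with the Tet guides 185 and 464. A library left alone in its group is assumed to vary like the others, and 2 libraries a group limit every test here.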
